A study of Mus musculus with 6 samples.

Results

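The RecQ helicases and the Blm dissolvasome were described as 7 genes: Wrn, Blm, Recql, Recql4 and Recql5, which encode the 5 mouse RecQ helicases, and Top3a and Rmi1, which encode the topoisomerase and the scaffold that work with Blm. They were chosen by gene symbol, with earlier results of these data known. All 7 had a spot with a symbol in the platform annotation, among 16504 named genes measured. Each of the 7 was measured by 1 spot, and none of these spots stood at exactly 0 on any array. Fibroblasts grown from mouse embryos, of 3 mutant genotypes, were each hybridised against wild-type cells on 2 Agilent arrays that carry a mutant and a wild-type sample in different dyes. The double mutant carried the Wrn deletion and lacked PARP-1, the Wrn mutant carried that deletion alone, which is in frame and removes helicase sequence, the PARP-1 null lacked poly(ADP-ribose) polymerase 1, and the wild type had neither change. Cells of every genotype came from embryos of 15.5 days on a 129/Sv-Black Swiss background. They were pooled from 3 embryos of 1 litter and used at passage 2, after 10 population doublings, for cytoplasmic RNA. For the duplicate double-mutant array, the strain label of the mutant channel reads wild type while its title and source name the double mutant. In a bulk culture, fewer cells of a type and less RNA per cell cannot be told apart. The fibroblast label could not be checked, because a ratio does not show whether a marker is present.

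RecQ helicases unwind DNA from 3′ to 5′ and act on forks, D-loops and junctions that form when replication stalls or a break is repaired. Blm, Top3a and Rmi1 form the dissolvasome, which takes apart double Holliday junctions so that no crossover is left. In people, loss of WRN causes Werner syndrome, loss of BLM causes Bloom syndrome, and changes in RECQL4 cause Rothmund-Thomson syndrome. WRN and PARP-1 are known to bind each other, which is the background to a double mutant.

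Values are log2 ratios read as mutant over wild type, so that 0 is the wild-type level and 1 is 2-fold. This direction is likely and not certain. It rests on Parp1, which stood at -2.97 and -2.59 in the double mutant, -0.12 and -0.31 in the Wrn mutant, and -2.61 and -2.30 in PARP-1 null cells. Cy5 over Cy3 with the labelled dyes would give the opposite sign and mirror every direction. Parp1 passed in the double mutant and the PARP-1 null (limma, adjusted p = 0.0104 for both). Dyes were never swapped, so a ratio against wild type also holds any dye bias of its probe. In a difference between 2 mutants that bias cancels. Genes were tested with limma over all features, and a gene passed at a Benjamini-Hochberg adjusted p below 0.05. The sources do not say whether the 2 arrays of a genotype held separate litters, and p-values measure the spread between them, technical or not.

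**Figure D1:**
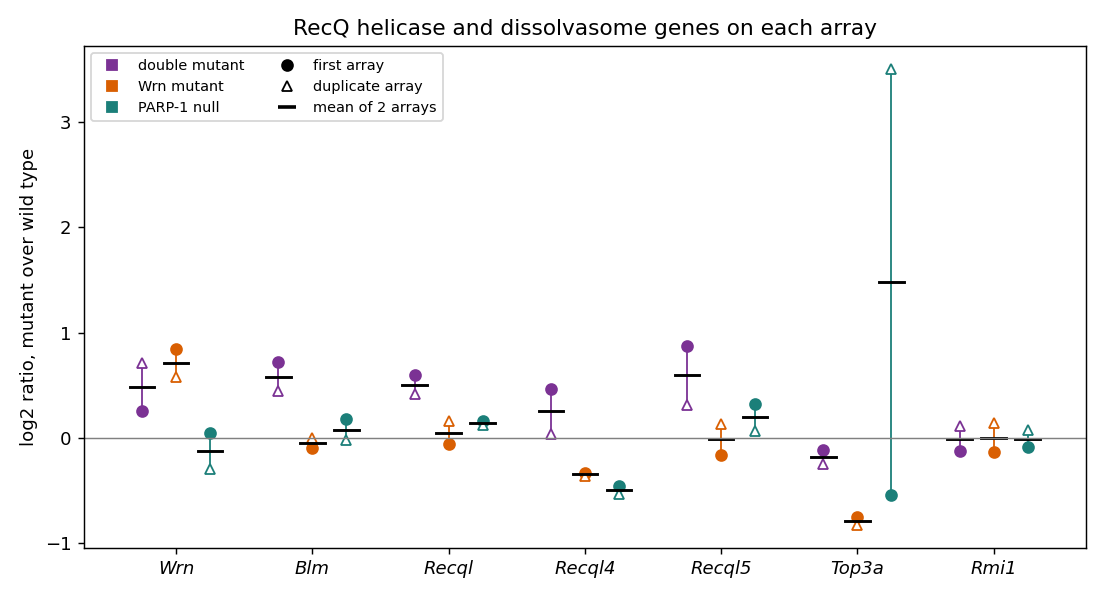
Log2 ratio, mutant over wild type (vertical axis), of the 7 genes on each of 6 arrays. Circles are first arrays, triangles duplicates and black bars the mean of 2 arrays. Blm, Recql and Recql4 lie higher on both double-mutant arrays than on the 4 arrays of the single mutants, and Top3a has 1 array at 3.50.

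Wrn itself, the gene with the deletion, had ratios above 0 on all 4 arrays of cells that carry it, although no test passed. Its ratio was 0.25 and 0.71 on the double-mutant arrays, 0.84 and 0.58 on the Wrn mutant arrays, and 0.045 and -0.29 on the PARP-1 null arrays. The 4 arrays of cells with the Wrn deletion lay above both PARP-1 null arrays. The means were 0.48 ± 0.33 in the double mutant, 0.71 ± 0.19 in the Wrn mutant and -0.12 ± 0.24 in PARP-1 null cells (SD, n = 2 each). None passed, with adjusted p = 0.137, 0.122 and 0.743 in that order. The difference of the Wrn-deleted genotypes from the PARP-1 null, in which the dye cancels, was 0.72 (95% interval 0.13 to 1.31), with an unadjusted p of 0.0280 and an adjusted p of 0.801 (limma). Of all named genes, 5.02% lay above without overlap in this comparison and 0% passed it in limma. At an unadjusted p below 0.05, 931 genes passed it, 5.64% of those tested, with Wrn and Recql4 among them. Between the double mutant and the Wrn mutant, which carry the same deletion, Wrn differed by -0.23 (95% interval -0.90 to 0.45, adjusted p = 0.719). The files do not place the Wrn probe inside or outside the deleted part. Outside it the probe would not check the label, and inside it a positive ratio would go against the label.

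The other RecQ helicases did not pass in the Wrn mutant, where the deletion stood alone. Their means there ran between -0.34 (Recql4) and 0.051 (Recql). In the double mutant Blm, which keeps crossovers low during break repair, and Recql, the most abundant RecQ helicase of many human cells, rose. Blm stood at 0.72 and 0.45 on the double-mutant arrays, -0.093 and 0.0032 on the Wrn mutant arrays, and 0.18 and -0.022 on the PARP-1 null arrays. Both double-mutant values lay above the other 4, which stood near 0. The mean of Blm was 0.58 ± 0.19 in the double mutant (adjusted p = 0.0359), -0.045 ± 0.068 in the Wrn mutant (0.891) and 0.077 ± 0.14 in PARP-1 null cells (0.705; SD, n = 2 each). Recql stood at 0.60 and 0.41 on the double-mutant arrays, -0.060 and 0.16 on the Wrn mutant arrays, and 0.16 and 0.12 on the PARP-1 null arrays. Again the double-mutant arrays did not overlap with the others. The mean of Recql was 0.50 ± 0.13 in the double mutant (adjusted p = 0.0348), 0.051 ± 0.16 in the Wrn mutant (0.806) and 0.14 ± 0.025 in PARP-1 null cells (0.345). Of the 7 genes, 2 passed in the double mutant and 0 in each single mutant. The share of all named genes that passed was 18.5% for the double mutant, 2.35% for the Wrn mutant and 7.19% for the PARP-1 null. At an unadjusted p below 0.05 it was 4 of 7 in the double mutant (37.4% of all genes), with Wrn and Recql5 added, 2 of 7 in the Wrn mutant (23.4%), namely Wrn and Recql4, and 1 of 7 in PARP-1 null cells (27.5%), Recql4. Both calls ended when any 1 of the 6 arrays was left out, with adjusted p from 0.0784 to 0.156 for Blm and from 0.0599 to 0.171 for Recql. Without the duplicate double-mutant array, whose strain label differs, Blm stood at 0.72 (adjusted p = 0.0784) and Recql at 0.60 (0.0937), and 185 named genes passed in place of 3052.

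Against the single mutants, Blm in the double mutant differed by 0.63 from the Wrn mutant (95% interval 0.24 to 1.01, adjusted p = 0.226) and by 0.51 from the PARP-1 null (0.12 to 0.89, adjusted p = 0.645). For Recql the differences were 0.45 (0.13 to 0.78, adjusted p = 0.255) from the Wrn mutant and 0.36 (0.036 to 0.69, adjusted p = 0.708) from the PARP-1 null. None of these passed, and in limma 0% of named genes passed in either comparison. At an unadjusted p below 0.05 the counts were 2500 against the Wrn mutant and 1181 against the PARP-1 null, or 15.1% and 7.16% of those tested. With exact zeros taken as missing 39 genes passed against the Wrn mutant.

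The promoters of Blm and Recql, the 2 genes that passed, and of Recql5, which stood above 0 on both double-mutant arrays, are printed to show what stretch of sequence lies before each start. A RefSeq promoter was matched for 4 of the 7 genes, with a pair of entries for Recql, the first of which is shown, and for Rmi1, each with 250 bases before and 50 after a start. Capitals mark CCAAT, or ATTGG where it lies on the other strand.
Blm (GRCm38.p6, chr7:80534949-80535248, minus strand): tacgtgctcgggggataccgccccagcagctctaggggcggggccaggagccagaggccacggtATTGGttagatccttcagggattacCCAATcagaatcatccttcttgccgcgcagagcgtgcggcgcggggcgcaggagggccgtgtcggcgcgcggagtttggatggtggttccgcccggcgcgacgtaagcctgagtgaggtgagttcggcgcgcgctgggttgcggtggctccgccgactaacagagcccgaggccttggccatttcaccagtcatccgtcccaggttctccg
Recql (GRCm38.p6, chr6:142386893-142387192, minus strand): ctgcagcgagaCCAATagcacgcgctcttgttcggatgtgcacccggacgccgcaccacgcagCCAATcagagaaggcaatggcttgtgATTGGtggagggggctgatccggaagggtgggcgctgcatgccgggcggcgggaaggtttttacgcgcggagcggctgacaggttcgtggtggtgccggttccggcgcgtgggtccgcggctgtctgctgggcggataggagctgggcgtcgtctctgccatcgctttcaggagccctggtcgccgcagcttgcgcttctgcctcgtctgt
Recql5 (GRCm38.p6, chr11:115933443-115933742, minus strand): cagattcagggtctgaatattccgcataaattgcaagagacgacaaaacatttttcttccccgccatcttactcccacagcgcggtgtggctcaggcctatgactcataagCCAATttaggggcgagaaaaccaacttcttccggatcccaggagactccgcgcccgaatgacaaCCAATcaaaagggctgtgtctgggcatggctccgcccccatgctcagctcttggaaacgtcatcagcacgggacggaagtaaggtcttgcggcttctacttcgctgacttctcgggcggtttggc
CCAAT was found 2 times in the Blm promoter, 3 times in that of Recql and 2 times in that of Recql5, on either strand. Of all 32851 promoters of this length, 37.4% held it at least once, 11.7% at least 2 times and 3.37% at least 3 times. GGGCGG was found 3, 2 and 2 times in these promoters, on either strand. Of all promoters 35.7% held it at least once, 19.5% at least 2 times and 10.7% at least 3 times. The share of G and C was 66.0%, 66.0% and 53.7% in these promoters, against a median of 52.7% over all. The letters TTTCCCGC and TTTGGCGC were in none of the 3 windows, and in 1.07% and 0.514% of all promoters. The first of the 2 Rmi1 entries, a gene whose ratio stayed near 0, also held CCAAT 2 times.

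Recql4, which helps to load the replication machinery, was the one RecQ gene that stood on opposite sides of wild type on every array of the double mutant and of the single mutants. It stood at 0.47 and 0.042 on the double-mutant arrays, -0.33 and -0.36 on the Wrn mutant arrays, and -0.46 and -0.53 on the PARP-1 null arrays. Both single mutants lay below wild type and the double mutant above it, without overlap. The share of all named genes with this pattern was not counted. The means were 0.26 ± 0.30 in the double mutant, -0.34 ± 0.020 in the Wrn mutant and -0.49 ± 0.054 in PARP-1 null cells (SD, n = 2 each; adjusted p = 0.227, 0.206 and 0.0968). The double mutant exceeded the PARP-1 null by 0.75 (95% interval 0.28 to 1.22, adjusted p = 0.596) and the Wrn mutant by 0.60 (0.12 to 1.07, adjusted p = 0.283). The 2 double-mutant arrays were far apart for Recql4, and the duplicate, at 0.042, was close to wild type. Without it the double mutant exceeded the PARP-1 null by 0.96 (adjusted p = 0.171) and the Wrn mutant by 0.81 (0.137).

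Recql5, which binds RNA polymerase II, stood above 0 on both double-mutant arrays, with a wide spread between them. It stood at 0.87 and 0.32 on the double-mutant arrays, -0.16 and 0.13 on the Wrn mutant arrays, and 0.32 and 0.065 on the PARP-1 null arrays. The lower double-mutant array was level with the higher PARP-1 null array, so those groups overlapped. The mean was 0.59 ± 0.39 in the double mutant (adjusted p = 0.108), -0.014 ± 0.21 in the Wrn mutant and 0.19 ± 0.18 in PARP-1 null cells. The double mutant differed from the Wrn mutant by 0.61 (95% interval -0.12 to 1.34, adjusted p = 0.426).

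Across the 7 genes, 3 lay above both single mutants without overlap on the 2 double-mutant arrays, namely Blm, Recql and Recql4, as did 11.5% of all named genes. Against the PARP-1 null alone it was 4 of 7, with Wrn added, against 19.2% of all genes. Against the Wrn mutant alone it was 5 of 7, with Recql5 and Top3a in place of Wrn, against 24% of all genes. None of the 7 lay below without overlap, against 13.2%, 17.6% and 7.76% of all genes below the PARP-1 null, the Wrn mutant and both. These comparisons share arrays and are not independent of each other. The mean was highest in the double mutant for 4 of the 7 genes, and for 44.2% of all named genes. Where all 4 Wrn-deleted arrays were set against both PARP-1 null arrays, Wrn and Recql4 lay above without overlap and 0 lay below, against 5.02% and 3.2% of all genes. Recql4 differed there by 0.45 (95% interval 0.041 to 0.86, adjusted p = 0.870), Blm by 0.19 (-0.14 to 0.53), Recql by 0.14 (-0.15 to 0.42) and Recql5 by 0.095 (-0.54 to 0.73). The last 3 intervals include 0 and reach at most 0.73.

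**Figure D2:**
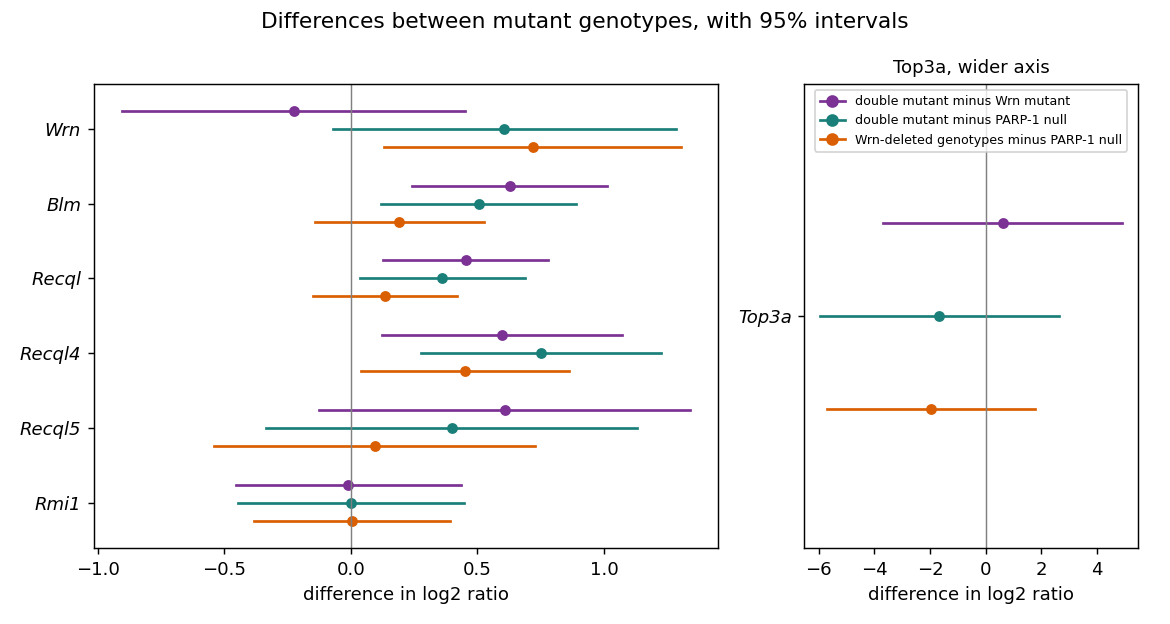
Differences in log2 ratio between mutant genotypes (horizontal axis) with the 95% interval of limma, over 2 arrays per genotype, where the Wrn-deleted genotypes are the mean of the double mutant and the Wrn mutant. Intervals for Blm, Recql and Recql4 lie above 0 in the double mutant against either single mutant before adjustment, those for Rmi1 are centred on 0, and Top3a is drawn on a wider axis.

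Top3a, the topoisomerase that passes the strands in the dissolvasome, had a low ratio in the Wrn mutant. It stood at -0.11 and -0.25 on the double-mutant arrays, -0.75 and -0.82 on the Wrn mutant arrays, and -0.54 and 3.50 on the PARP-1 null arrays. Apart from the last, all values lay below wild type, and the Wrn mutant arrays were the lowest. The 2 PARP-1 null arrays differed by 4.04, a gap larger than that of 99.3% of named genes in this genotype, where the median gap was 0.26. Because all genotypes share 1 estimate of spread, this array set the interval of Top3a everywhere: the mean in the Wrn mutant was -0.79 ± 0.050 (SD, n = 2), with a 95% interval of -3.84 to 2.26 and an adjusted p of 0.746. The difference between the double mutant and the PARP-1 null was -1.66 (95% interval -5.97 to 2.65).

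The Top3a spot lay in an area of the duplicate PARP-1 null array in which most spots had high ratios. Spots were laid out by their deposited number in rows of 215. Of the lengths tried, this one was chosen because spots 1 row apart on this array then correlated most. That r was 0.39, a maximum by choice, and r was also 0.39 for spots next to each other. On the other 5 arrays both were 0.046 or less. Each spot was compared with the median of the other arrays, and the median was taken in windows of 7 by 7 spots. Around Top3a the 47 other spots of the window had a median deviation of 2.80 on the duplicate PARP-1 null array, and 37 of them were above 1. On the other 5 arrays the same window had medians between -0.080 and 0. On the duplicate PARP-1 null array 1496 spots, or 6.68%, were in windows past 0.5, and the count was 1 on the first double-mutant array and 0 on the other 4. Of 160 genes above 3 on this array and below 1 on the other 5, 157 had a spot in the area. Top3a was the one of the 7 genes with a spot there. The windows around the other 6 genes had medians between -0.15 and 0.25 on all arrays, the largest being that of Wrn on the duplicate double-mutant array. With the spots of such windows left out, an alternative chosen after seeing the data, Top3a fell in the Wrn mutant (-0.79, adjusted p = 0.0436, limma). In that fit the PARP-1 null is represented by its first array alone, at -0.54 (adjusted p = 0.0720), and the double mutant stands at -0.18 (adjusted p = 0.146). The double mutant then differed from the PARP-1 null by 0.36 (adjusted p = 0.672) and from the Wrn mutant by 0.61 (0.183). Without the whole duplicate PARP-1 null array, the adjusted p of Top3a in the Wrn mutant was 0.0711. Without the first PARP-1 null array, Top3a rests on the duplicate alone and passed at 3.50 (adjusted p = 0.00604). The calls of Blm and Recql in the double mutant stood at 0.0355 and 0.0341 with these spots left out.

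**Figure D3:**
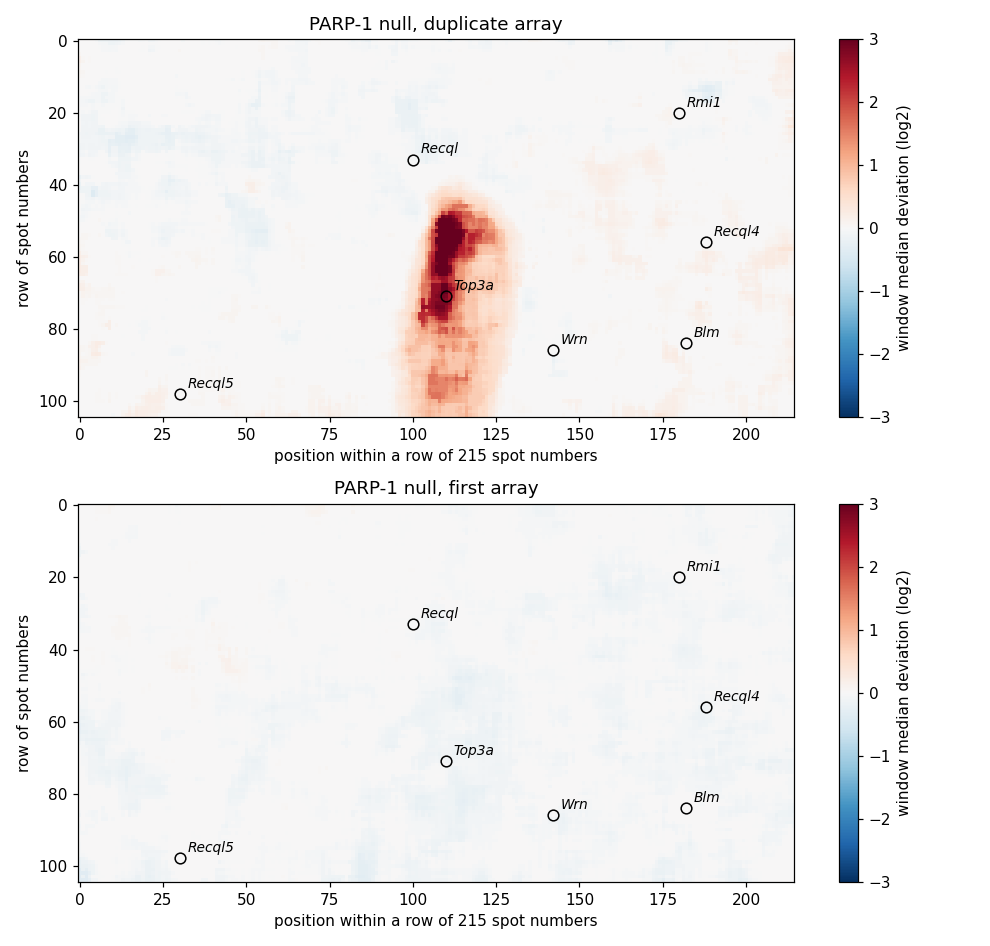
Median deviation from the other 5 arrays (colour, log2) in windows of 7 by 7 spots, with spots laid out by number in rows of 215, for the duplicate (top) and first (bottom) PARP-1 null array. Circles mark the spots of the 7 genes. Top3a lies in a dark area of the duplicate array, where its window had a median of 2.80, and the other 6 genes lie outside it.

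Rmi1, the oligonucleotide-binding scaffold that joins Top3a to Blm, was flat. It stood at -0.13 and 0.11 on the double-mutant arrays, -0.14 and 0.14 on the Wrn mutant arrays, and -0.090 and 0.078 on the PARP-1 null arrays. The groups overlapped fully. The means were -0.0054 ± 0.17, 0.0038 ± 0.20 and -0.0062 ± 0.12 (SD, n = 2 each), and the 95% interval in the double mutant, -0.32 to 0.31, holds changes of that size or less. For Blm, its partner, the 95% interval in the double mutant was 0.31 to 0.85, and the difference between the 2 genes was not tested.

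By closeness over the 6 arrays, measured as Euclidean distance in log2 ratios among genes without an exact 0, the genes most like each of the 7 were as follows. Wrn was closest to Meg3, an imprinted long noncoding RNA (distance 0.41), and the tight-junction gene Cldn5 (0.47). Blm was closest to Coa5, a cytochrome oxidase assembly factor (0.20), and Gins2, a subunit of the replicative helicase complex (0.20). Recql was closest to Luc7l, a splicing factor gene (0.15), and Klf16, a zinc-finger gene (0.16). Recql4 was closest to the membrane protein gene Dcbld1 (0.25) and the interleukin-6 receptor gene Il6ra (0.34), and Recql5 to Slc66a1, a lysosomal transporter (0.20), and the splicing gene Bud13 (0.21). Coa5 stood at 0.82 and 0.36 on the double-mutant arrays, -0.12 and 0.094 on the Wrn mutant arrays, and 0.074 and -0.021 on the PARP-1 null arrays. Gins2 stood at 0.64 and 0.32 on the double-mutant arrays, -0.12 and -0.084 on the Wrn mutant arrays, and 0.074 and 0.00023 on the PARP-1 null arrays. Rmi1 was closest to Ube2l3 (0.12) and Cog1 (0.13), which were flat as well. Top3a was closest to Tgfb1 (0.81) and Hapln1 (0.87), whose spots lay in the same area of the duplicate PARP-1 null array, at 3.15 and 3.40. Ranked by Pearson correlation in its place, the closest to Recql was Mcm7, a subunit of the MCM helicase (r = 0.998), and Blm was closest to Galnt12 (r = 0.997). The highest r was 0.993 for Wrn, 0.991 for Recql4, 0.997 for Recql5, 0.997 for Top3a and 0.982 for the flat Rmi1. Over 6 arrays that share the wild type as partner, and among 12294 candidates, each of the 7 genes thus had a gene of very high r.

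Among 22 measured partners of WRN and BLM, 3 rose and 1 fell in the double mutant, and 1 fell in each single mutant. These are 18.2%, 4.55% and 4.55% of the list in the double mutant, Wrn mutant and PARP-1 null, against 18.5%, 2.35% and 7.19% of all named genes, so the counts are near the background. The one that fell in all was Xrcc5, which encodes Ku80, a DNA end-binding subunit of Ku that binds WRN. It stood at -0.66 and -0.62 in the double mutant (adjusted p = 0.0105), -0.44 and -0.39 in the Wrn mutant (0.0265), and -0.26 and -0.33 in PARP-1 null cells (0.0348). Its 6 values were all below 0 and lowest in the double mutant; a dye bias of the probe or the wild-type pools would be shared by all 6, and their part was not tested. Rpa1, the large subunit of the single-strand binding protein that stimulates both helicases, rose in the double mutant at 1.25 and 0.59 (adjusted p = 0.0473), against -0.75 and -0.73 in the Wrn mutant and 0.32 and 0.20 in PARP-1 null cells. Pot1a, a telomere end-binding gene, rose by 0.71 ± 0.32 and Nbn, of the break-sensing MRN complex, by 0.42 ± 0.081 in the double mutant (n = 2, adjusted p = 0.0473 and 0.0368). These calls depended on the fit. Under scale normalization and under the replicate block 0 rose and 1 fell in the double mutant, and with its arrays alone 0 passed. With exact zeros as missing 3 rose and 3 fell there. The counts in the double mutant also changed when any 1 array was left out, the duplicate double-mutant array included. In each single mutant 0 passed under the replicate block and with the arrays of that genotype alone, so the fall of Xrcc5 there depended on the fit too. Scale normalization left 1 that fell in the Wrn mutant and 0 in PARP-1 null cells. The single-mutant counts also changed in some fits without 1 array. The list medians were 0.051, -0.26 and -0.073 in the double mutant, Wrn mutant and PARP-1 null, with 0 for all named genes in each. On the 2 double-mutant arrays the median was -0.037 and 0.088.

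Of 27 other DNA helicases, 5 rose and 2 fell in the double mutant, 0 passed in the Wrn mutant and 1 fell in PARP-1 null cells, which in the double mutant is 25.9% of the list against 18.5% of all named genes. Chd1l, a PARP-activated chromatin remodeller, rose by 1.15 ± 0.34 and Mcm5, of the replicative helicase, by 1.10 ± 0.19 in the double mutant (n = 2, adjusted p = 0.0318 and 0.0432). The others that rose there, named after their values were seen, were Helb, a fork-associated helicase (0.76), Fbh1, an F-box helicase (0.59), and Dhx9 (0.38), with adjusted p = 0.0353, 0.0343 and 0.0239. The meiotic helicase gene Hfm1 fell there, at -1.24 ± 0.017, and in PARP-1 null cells, at -1.04 ± 0.16, and Atrx fell in the double mutant, at -1.08 ± 0.13 (adjusted p = 0.0219, 0.0421 and 0.0463). In the Wrn mutant Hfm1 stood at -0.97 ± 0.34 and Mcm9 at -0.82 ± 0.22, and neither passed (adjusted p = 0.0641 and 0.0947). Without the duplicate double-mutant array 0 passed in the double mutant, and the same held for the nucleases and topoisomerases described next. The list medians were 0.31 in the double mutant, -0.32 in the Wrn mutant and -0.024 for the PARP-1 null. That of the double mutant was 0.39 on the first array and 0.010 on the duplicate, so it rests on the first array. The topmost point of this list in PARP-1 null cells, Ercc6 at 0.28 and 5.72, also had a spot in the shifted area that holds Top3a, as did Ercc4, Tdp2 and Ccne2 of the lists below.

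Of 14 nucleases that cut junctions and flaps, 2 rose and 3 fell in the double mutant, and 1 rose and 1 fell in each single mutant, or 35.7% of the list in the double mutant and 14.3% in each single mutant, against the shares of all genes given above. Fan1, a nuclease of crosslink repair, fell in the Wrn mutant at -1.55 and -1.41 (adjusted p = 0.0152) and in PARP-1 null cells at -0.86 and -0.71 (0.0216), and it fell in the double mutant at -0.53 and -0.38 (0.0344). Trex2, a 3′ exonuclease gene, rose in the Wrn mutant at 1.34 and 1.64 (adjusted p = 0.0152) and stood at exactly 0 on the other 4 arrays, a value whose meaning is not stated. Those zeros add no spread to the estimate that the genotypes share, which makes the p-value of Trex2 smaller. Ercc1 and Ercc4 encode the partners of 1 flap endonuclease. Ercc1 rose in the double mutant, at 1.14 ± 0.17 (adjusted p = 0.0182), and in PARP-1 null cells, at 0.94 ± 0.23 (0.0345), against -0.62 ± 0.068 in the Wrn mutant. Ercc4 rose in the double mutant, at 0.94 ± 0.19 (adjusted p = 0.0282). Slx1b, the catalytic subunit of a junction resolvase, fell in the double mutant at -0.85 ± 0.41, and Dclre1a at -0.60 ± 0.27 (adjusted p = 0.0463 and 0.0479). Under the replicate block 0 of the 14 passed in each single mutant, and with the arrays of a genotype alone 0 passed in any. Scale normalization left 1 that rose and 1 that fell in the Wrn mutant, and 2 and 1 in PARP-1 null cells. Counts in each single mutant also fell in some fits without 1 array. The list medians were 0.22, -0.11 and -0.019 in the double mutant, Wrn mutant and PARP-1 null, with 0.23 and 0.11 on the 2 double-mutant arrays.

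Of 9 genes of DNA topoisomerases and their repair enzymes, Top3a included, 2 rose in the double mutant and 0 passed in the single mutants. In the double mutant that is 22.2% of the list against 18.5% of all named genes, so the count is near the background. Scale normalization left 2 that rose there, and the replicate block and the double-mutant arrays alone left 0. Tdp2 rose by 0.76 ± 0.14 and Top1 by 0.55 ± 0.052 in the double mutant (n = 2, adjusted p = 0.0208 and 0.0234). With spots in shifted windows left out, 1 of the 9, Top3a, fell in the Wrn mutant. There Top2a stood at -0.52 ± 0.10 (adjusted p = 0.133). The list medians were 0.36 in the double mutant, 0.050 in the Wrn mutant and 0.035 in PARP-1 null cells, with 0.35 and 0.12 on the 2 double-mutant arrays.

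Most genes that mark dividing cells, 16 of 20, stood above 0 in the double mutant. There 7 rose, 2 fell and 11 did not pass, so that 45% passed, against 18.5% of all named genes. The list median was 0.70, against 0 for all named genes. In the Wrn mutant 0 passed, against 2.35% of all named genes, the median was -0.31 and 1 stood above 0. In PARP-1 null cells 0 passed, against 7.19%, and the median was 0.072. Ccna2, an S and G2 phase cyclin, rose by 1.52 ± 0.10 and the mitotic kinase gene Aurka by 1.18 ± 0.20 in the double mutant, while Foxm1 fell, at -2.04 ± 0.32, and Ccne2, at -1.38 ± 0.16 (n = 2, adjusted p = 0.0220, 0.0206, 0.0355 and 0.0268). Both low genes were also low, without passing, in the Wrn mutant (-1.64 for Foxm1 and -1.32 for Ccne2) and in PARP-1 null cells (-1.62 and -1.08). Mcm5 is counted among these markers as well as among the helicases. Per array, the medians of this list were 0.74 and 0.59 in the double mutant, -0.51 and -0.18 in the Wrn mutant, and -0.091 and 0.14 in PARP-1 null cells. Those of the 7 RecQ and dissolvasome genes were 0.47 and 0.32, -0.14 and 0.13, and 0.045 and 0.065 in the same order. Without the duplicate double-mutant array 0 of the 20 passed in the double mutant, where the median was 0.74. The part of proliferation in the ratios of Blm, Recql and Recql4 was not tested.

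**Figure D4:**
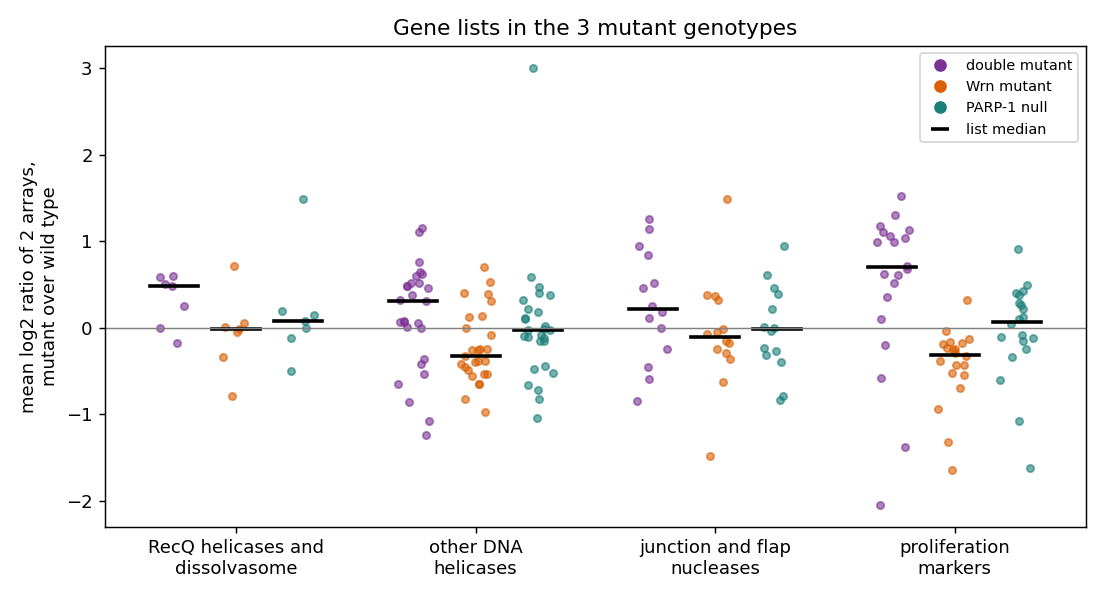
Mean log2 ratio of 2 arrays (vertical axis) for each gene of 4 lists in the 3 mutant genotypes, where black bars are list medians. In the double mutant the medians are 0.48 for the RecQ and dissolvasome genes, 0.31 for other helicases, 0.22 for nucleases and 0.70 for proliferation markers.

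Fibroblast markers had medians of 0.73, 0.52 and 0.88 over 14 genes in the double mutant, Wrn mutant and PARP-1 null. In that order 3, 0 and 1 rose, and 0 fell. These are 21.4%, 0% and 7.14% of the list, against 18.5%, 2.35% and 7.19% of all named genes, so the counts are near the background. In the double mutant 11 of the 14 stood above 0, and the lowest stood at -1.64. On the 2 Wrn mutant arrays the median was 0.060 and 1.06, and without the first of them, at 1.06, 2 of the 14 rose in the Wrn mutant. Those that rose were the intermediate filament gene Vim (2.51), S100a4 (1.71) and Prrx1 (0.59) in the double mutant and Vim (2.05) in PARP-1 null cells, with adjusted p = 0.0208, 0.0386, 0.0361 and 0.0408. Macrophage and leukocyte markers had medians of -0.40, 0.88 and -0.39 over 12 genes, with 1.30 and 0.34 on the 2 Wrn mutant arrays, and mesothelial markers 2.05, 0.89 and 2.68 over 5 genes. The mesothelial median was 2.04 and -0.52 on the 2 Wrn mutant arrays, on opposite sides of wild type. Endothelial markers had a median of 0 over 7 genes in each genotype, and epithelial markers 0, -0.15 and -0.017 over 7 genes, with 0.10 and -0.40 on the 2 Wrn mutant arrays. Of the macrophage and endothelial lists 0 passed in each genotype, of the mesothelial list Wt1 rose in the double mutant (2.35) and Gpm6a in the Wrn mutant (0.89), and of the epithelial list Epcam fell in PARP-1 null cells (-1.42), with adjusted p = 0.0436, 0.0367 and just under 0.05. Whether a change in the mix of cells had a part in the RecQ ratios was not tested.

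Genes next to the RecQ genes were looked up by position after these values were seen, as the protein-coding neighbours within 1000 bases in RefSeq, and are given as a description. Golt1b, a Golgi transport gene and neighbour of Recql, rose in the double mutant, at 0.77 and 0.59 (adjusted p = 0.0240), with 0.095 and 0.33 in the Wrn mutant and 0.28 and 0.35 in PARP-1 null cells. Its correlation with Recql over the 6 arrays was 0.990, the 13th highest among 15587 genes with any variation, and by distance it was the 357th closest among 16503. Sap30bp, the neighbour of Recql5, stood at 0.93 and 0.41 in the double mutant, -0.13 and -0.0022 in the Wrn mutant, and 0.40 and 0.24 in PARP-1 null cells, and was the 11th closest gene to Recql5 by distance and the 142nd by correlation (r = 0.96). Pyroxd1, another neighbour of Recql, also rose in the double mutant (0.34 ± 0.040, adjusted p = 0.0296). Other pairs had lower correlations, at 0.68 for Recql and Pyroxd1, -0.11 for Recql5 and Myo15b, 0.22 for Wrn and Purg, 0.40 for Recql4 and Lrrc14, 0.61 for Rmi1 and Hnrnpk, and -0.62 for Top3a and Smcr8. Purg, which rose in the double mutant (0.89 ± 0.28, adjusted p = 0.0253), stood at 0.81 ± 0.085 in the Wrn mutant and 0.68 ± 0.054 in PARP-1 null cells, where Wrn stood at -0.12.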

How the data were processed

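The authors deposited 1 log ratio per spot and array, taken here as log10 because the values stop exactly at a size of 2. The sources state neither the base nor the centring and background steps. Per the labels, Cy5 marked the wild type and Cy3 the mutant. Each of the 6 arrays had 22393 spots, with a median of 0 and between 16.9% and 23.7% of spots at exactly 0. No signal intensities were used, and precision is limited by the number of arrays. Multiplying by 3.32 gave the log2 scale, and spots of a gene were averaged (16504 named genes, 4175 single features, 20679 in all). Groups came from the source labels of the mutant channel. Features were fitted with limma 3.58.1 in R 4.3.3, in 1 model with a coefficient per genotype (3 residual degrees of freedom, prior 0.66), and tested on simulated data. Benjamini-Hochberg adjustment ran over all of these features. Plots used matplotlib 3.10.9 and pandas 2.3.3 in Python 3.11.15.

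Besides the 7 genes, the text names the 2 genes closest to each of them and genes that a rule picked from each list in each comparison with wild type: at most 4 that passed, largest first, or the 2 most extreme where none passed. Picks that did not pass are mostly given by list counts alone. Fan1 in the double mutant, Helb, Fbh1, Dhx9, Ercc6, the neighbours by position and the genes ranked by correlation were chosen after their values were seen. Of 157 list symbols 139 were matched. The members and lists were chosen with earlier results of these data known. Promoters are RefSeq's, of GRCm38.p6. Alternatives were scale normalization (median absolute values), exact zeros as missing, the median of spots, a replicate block, each array left out, the compared arrays alone and, added later, spots in shifted windows left out.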

Additional observations from a re-analysis of the deposited data

Results flagged for a closer look

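Recql4 was flagged because both double-mutant arrays lay above wild type and all 4 arrays of the single mutants below it. The duplicate double-mutant array, at 0.042, was close to wild type. Of all named genes, 11.5% lay above both single mutants without overlap in the double mutant. The share that also stood on opposite sides of wild type was not counted. The difference in log2 ratio was 0.60 between the double mutant and the Wrn mutant and 0.75 between the double mutant and the PARP-1 null. Neither difference passed limma's test after Benjamini-Hochberg adjustment (adjusted p = 0.283 and 0.596).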

How the results depend on the processing

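The 2 calls among the 7 genes, Blm and Recql in the double mutant, kept their direction under each alternative run. Their adjusted p rose past 0.05 under scale normalization (0.0560 and 0.0583), the replicate block (0.0696 and 0.0854), the double-mutant arrays alone (0.236 and 0.206) and with any 1 array left out, and for Recql also with exact zeros missing (0.0679, against 0.0497 for Blm). The difference between the first and duplicate array, over all named genes, correlated weakly between genotypes. For the double and Wrn mutants r was -0.17, for the double mutant and PARP-1 null 0.17, and for the Wrn mutant and PARP-1 null -0.11. With mixed signs and 2 arrays per genotype, these values cannot settle whether same-numbered arrays were paired. Counts of named genes that passed were 3052, 388 and 1187 in the double mutant, Wrn mutant and PARP-1 null. Scale normalization gave 1037 in the double mutant, 931 in the Wrn mutant and 3 between these. Exact zeros as missing gave 4350 in the double mutant, 883 in the Wrn mutant, 2231 for the PARP-1 null, 39 between the double and Wrn mutants and 2 between the Wrn-deleted genotypes and the PARP-1 null. The replicate block gave 1215 in the double mutant and 0 in both single mutants, and the compared arrays alone gave 0 in each of the 3. With 1 array left out the counts ran from 32 to 1308, 0 to 768 and 56 to 597 in the double mutant, Wrn mutant and PARP-1 null. They ran from 0 to 286 for the double mutant against the PARP-1 null, 0 to 387 against the Wrn mutant and 0 to 316 for the Wrn-deleted genotypes against the PARP-1 null. These fits keep fewer residual degrees of freedom, and in each the genotype left with 1 array is assumed to vary like the others.

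Reversals under scale normalization were Rmi1 in the double mutant (0.0030), in the Wrn mutant (-0.014) and between them (0.017), and Parp1 between the double mutant and the PARP-1 null (0.22). With spots in shifted windows left out, Top3a turned to -0.54 in the PARP-1 null, 0.36 for the double mutant against it and 0.055 for the Wrn-deleted genotypes against it. Over the fits without 1 array, Top3a ran from -0.54 to 3.50, from -3.68 to 0.36 and from -3.99 to 0.055 in those comparisons. In the Wrn mutant Blm ran from -0.093 to 0.0032, Recql from -0.060 to 0.16, Recql5 from -0.16 to 0.13 and Rmi1 from -0.14 to 0.14. In the PARP-1 null Blm ran from -0.022 to 0.18, Wrn from -0.29 to 0.045 and Rmi1 from -0.090 to 0.078. Rmi1 ran from -0.13 to 0.11 in the double mutant, from -0.15 to 0.13 against the Wrn mutant, from -0.12 to 0.12 against the PARP-1 null and from -0.079 to 0.090 for the Wrn-deleted genotypes. Wrn between the double and Wrn mutants ran from -0.46 to 0.0043, and Recql5 between the Wrn-deleted genotypes and the PARP-1 null from -0.044 to 0.23. Except where an array was left out, the cause of these changes was not tested. The compared arrays alone give no other fit for the Wrn-deleted comparison, which uses all 6.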
